A study of Mus musculus with 6 samples.

Results

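The genes described here belong to 3 vasoactive peptide axes: endothelin (Edn1, Ece1 and Ednrb), natriuretic peptide (Npr1, Npr2 and Npr3) and adrenomedullin (Adm, Calcrl and Ramp2). They were chosen by gene symbol as ligands, a processing enzyme and receptors, with fold changes of this same comparison already known, and each symbol matched 1 row, giving 9 of the 30077 genes in the deposited table. Their fold changes and adjusted p-values are therefore a description of these libraries, taken from a fit across all genes, and not independent evidence. The cells were bEnd.3, an immortalised mouse brain endothelial line whose genotype is labelled WT. In 3 libraries, labelled mitochondrial transplantation, the cells had been given mitochondria isolated from MLO-Y4, a mouse osteocyte-like line, in 100 µl of medium. In 3 control libraries they had received the same volume of medium alone, with no other particle preparation. RNA of both groups was collected after 24 h.

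Endothelin 1 is a vasoconstrictor peptide that endothelial cells make as a larger precursor. Endothelin converting enzyme 1 cuts the precursor to the active peptide, and endothelin B receptors on endothelium clear it and couple to nitric oxide release. Natriuretic peptides act through NPR1 and NPR2, receptors that make cyclic GMP, while NPR3 lacks the cyclase part and removes the peptides by internalisation. Adrenomedullin is a vasodilator peptide that acts through CALCRL, a receptor that needs the membrane protein RAMP2 to reach the cell surface and to prefer this ligand.

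The transcript of the ligand endothelin 1 was lower in cells given mitochondria and that of its B receptor was higher, by 0.31 and 1.09 on the log2 scale. The natriuretic peptide clearance receptor Npr3 was lower by 0.61, while its cyclase-bearing relatives Npr1 and Npr2 did not pass the threshold. No gene of the adrenomedullin axis passed it, although on TMM-scaled counts Calcrl and Ramp2 stood higher in every mitochondria library than in any control. On deposited FPKM this held for Calcrl but not for Ramp2. In edgeR's quasi-likelihood test, called at a Benjamini-Hochberg adjusted p under 0.05 over 11255 tested genes, 3 of the 9 genes passed, with 1 higher and 2 lower, and 6 did not. Over all tested genes 2.09% passed, with 0.986% higher and 1.1% lower. Under other settings of the analysis Edn1 passed in 15 of 16, Npr3 in 11 of 15 and Ednrb in only 6 of 15. All 9 genes had been tested, since each had at least 1 FPKM (fragments scaled to transcript length and library size) in at least 3 libraries. Levels below are CPM (counts scaled to library size), normalised with TMM, or FPKM where genes are compared with each other.

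The 6 libraries held 59651087 to 65576084 counts, and the 9 genes 450 to 14421 counts each per library. Separate cultures are not stated for the libraries within a group, and the p-values then reflect only library-to-library spread, possibly technical. In these bulk samples a change in the share of cells that express a gene and a change in RNA per cell cannot be told apart. Of 15 endothelial markers 14 were tested and none passed, with a summed level of 1285 to 1293 FPKM in control and 1224 to 1296 FPKM in mitochondria libraries. The most abundant was the junction gene Cdh5, at 345 and 331 FPKM. Vwf, the marker that was not tested, reached at most 0.574 FPKM. In edgeR 12 of the 14 lay above 0 (median 0.05). Closest to passing were Flt1 (0.25, adjusted p = 0.0503), Esam (0.13, adjusted p = 0.0532) and Egfl7 (0.19, adjusted p = 0.0579), with groups that did not overlap in CPM. Those of Pecam1 (0.07) did not overlap either, and those of the other tested endothelial markers did. Over all tested genes the groups did not overlap for 21.1%. Of 10 osteocyte and osteoblast markers in the table, Gja1, which endothelium also expresses, was at 12.2 and 10.8 FPKM. The others reached at most 0.634 FPKM, and Bglap had 0 counts. Of 10 mural and fibroblast markers 2 were tested and neither passed, with Acta2 at up to 7.24 FPKM in 1 library. Of 7 astrocyte, microglia and leukocyte markers only Cd68 was tested. This lysosomal gene rose by 0.55 (SE 0.07, adjusted p = 0.00212 in edgeR), or 0.32 with the structural RNA share described next as a covariate (SE 0.10, adjusted p = 0.669 in edgeR). Ptprc, a defining leukocyte gene, reached at most 0.0074 FPKM. The share of counts in 18S ribosomal RNA and Lars2 together was 3.54%, 1.74% and 3.12% in control 1 to 3 and 4.37%, 7.92% and 6.60% in mitochondria 1 to 3. This sum is called the structural RNA share here, although Lars2 is a protein-coding gene. It stood apart between the groups, so a fit with it as a covariate cannot tell its part from that of the mitochondria. Values of the share are given below beside the results that it moved with.

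Sequence upstream of the RefSeq starts of the 3 genes that passed is shown first, since these carry the change in ligand, receptor and clearance receptor. Each line gives the 250 bases before the RefSeq start on the gene's own strand (GRCm38.p6), 5′ to 3′, with capitals for any match to a searched motif.
Edn1, chr13:42301226-42301475, plus strand: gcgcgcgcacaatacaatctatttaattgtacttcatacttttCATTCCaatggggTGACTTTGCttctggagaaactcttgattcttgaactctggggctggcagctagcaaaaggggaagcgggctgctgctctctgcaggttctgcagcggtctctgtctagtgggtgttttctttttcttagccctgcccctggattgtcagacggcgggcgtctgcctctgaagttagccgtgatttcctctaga
Ednrb, chr14:103843702-103843951, minus strand: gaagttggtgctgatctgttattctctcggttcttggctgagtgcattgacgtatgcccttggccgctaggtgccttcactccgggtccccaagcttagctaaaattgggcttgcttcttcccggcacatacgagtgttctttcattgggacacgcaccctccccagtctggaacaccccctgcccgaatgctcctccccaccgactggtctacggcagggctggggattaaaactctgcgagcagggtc
Npr3, chr15:11907372-11907621, minus strand: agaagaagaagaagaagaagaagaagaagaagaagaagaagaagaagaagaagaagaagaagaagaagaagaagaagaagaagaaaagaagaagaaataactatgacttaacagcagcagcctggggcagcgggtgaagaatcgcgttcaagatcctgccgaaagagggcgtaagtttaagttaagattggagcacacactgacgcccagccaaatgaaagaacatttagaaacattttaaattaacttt
Searched on both strands were the letters TGACNNNGC of the antioxidant response element. Those of AP-1 were TGANTCA. For zinc finger factors of the GATA family they were written as AGATAA. The hypoxia response element was searched as ACGTG. For TEAD factors, which act with YAP, the letters were GGAATG. For KLF factors, also zinc finger proteins, they were CCACCC. The Edn1 window held the TEAD letters on the opposite strand from 207 bases before the start, in 12.6% of all 32851 windows of this length. It also held the antioxidant response letters as TGACTTTGC from 194 bases before the start, in 10.2% of all windows, and the matches did not overlap. The Ednrb and Npr3 windows held none of the 6 motifs. The Ednrb window lies inside the span of the deposited gene, whose 5′ end is at 103844402, so the bases before that end were not shown. The Npr3 window opened with a GAA repeat of 84 bases. It reaches only to 11907372, short of the deposited gene's 5′ end at 11907287, so the bases next to that end were not shown. Gm5144, a lncRNA gene on the opposite strand (chr15:11906519-11907464, at most 22 counts), runs into this window. RefSeq windows were found for 8 of the 9 genes, 11 windows in all. Elsewhere the hypoxia letters were present for Ece1 (16.6% of all windows), the antioxidant letters for Adm, and the KLF letters for Ece1 and Npr1 (28.1%). The Ece1 matches were in a window from 137913308 on, also inside the deposited gene's span. The AP-1 letters (6.75% of all windows) and the GATA family letters (9.99%) were in none of the 11. These matches describe letters in a window and not bound sites.

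Edn1, which encodes the endothelin 1 precursor (ENSMUSG00000021367, chr13:42301476-42307990, plus strand, 1 transcript in GENCODE M21), was the most abundant of the 9 genes per length, at 75.1 ± 2.74 FPKM in control and 58.0 ± 0.879 FPKM in mitochondria libraries (SD, n = 3). Of the tested genes 94.4% had a lower mean level. Control 1 to 3 held 173, 180 and 181 CPM, and mitochondria 1 to 3 held 142, 147 and 141 CPM. The groups did not overlap, and each was tight, with coefficients of variation of 2.61% and 2.34%. The log2 fold change was −0.31 (SE 0.04, adjusted p = 0.00217 in edgeR), a level 0.806 times that of control. The gene passed in all 6 fits that left out a library, at −0.33 to −0.30. Adding the structural RNA share as a covariate left the estimate at −0.31 and raised its SE to 0.08 (adjusted p = 0.466 in edgeR). An antisense gene, Gm47118, lies within Edn1 and had 6 to 39 counts.

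Ece1, the converting enzyme (chr4:137862237-137965229, plus strand), was the second most abundant, at 35.9 ± 1.21 and 35.4 ± 1.60 FPKM. Its values were 205, 213 and 214 CPM in control and 221, 211 and 217 CPM in mitochondria libraries, and the groups overlapped. The log2 fold change was 0.04 (SE 0.04, adjusted p = 0.662 in edgeR), and it lay below 0 with library totals, FPKM or TPM. Set against its enzyme within each library, which removes the scaling, Edn1 had 2.086, 2.096 and 2.099 times the FPKM of Ece1 in control 1 to 3. The same ratio was 1.59, 1.73 and 1.61 in mitochondria 1 to 3, so the ligand was lower against its enzyme in each of them.

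Ednrb, the endothelin B receptor (ENSMUSG00000022122, chr14:103814625-103844402, minus strand, 3 transcripts in GENCODE M21), was near the low end of expression, at 1.82 ± 0.386 FPKM in control and 3.74 ± 1.14 FPKM in mitochondria libraries. Control 1 to 3 held 8.85, 6.65 and 10.5 CPM and mitochondria 1 to 3 held 13.0, 17.98 and 24.5 CPM. The groups did not overlap, but the mitochondria libraries spread widely, and mitochondria 1 was closer to control 3 than to mitochondria 2. Its coefficients of variation, 22.2% in control and 31.4% in mitochondria libraries, were the highest of the 9 genes. The log2 fold change was 1.09 (SE 0.22, adjusted p = 0.0256 in edgeR), a 2.14-fold higher level and the 51st largest absolute change of the tested genes. Of the 6 fits that left out a library, it passed without mitochondria 1 (1.30) and without mitochondria 2 (1.11). It did not pass without control 1 (1.11, adjusted p = 0.0773), control 2 (0.94, adjusted p = 0.0981), control 3 (1.25, adjusted p = 0.0512) or mitochondria 3 (0.84, adjusted p = 0.0967), all in edgeR. Nor did it pass with limma on FPKM or TPM, or in edgeR with no filter on low values.

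Ednrb also moved with the structural RNA share. Control 2 had the lowest value of both, and all mitochondria libraries lay above all controls in both, but mitochondria 3 had the most Ednrb and mitochondria 2 the largest share. With the share as a covariate the log2 fold change of Ednrb was 0.36 (SE 0.32, adjusted p = 0.889 in edgeR). Because the share stood apart between the groups, this fit cannot tell share and treatment apart. In the same fit Npr3 was at −0.72 (SE 0.16, adjusted p = 0.36 in edgeR), farther from 0 than without it but no longer past the threshold. By root mean square difference of centred log2 CPM over the 6 libraries, the tested genes nearest to Ednrb were Gm25911 (0.190), the pseudogene Dnajc19-ps (0.235) and Rpph1, the RNA of RNase P (0.262). For Edn1 they were Ccn2, a matricellular protein gene (0.0254), Rassf1 (0.0264) and the kinase anchoring gene Akap12 (0.0286). For Npr3 they were Gm48860 (0.0701), Gm20056 (0.0731) and Tnc, which encodes the matrix protein tenascin C (0.0868).

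Most other genes of the endothelin axis had few counts. Ednra, the other endothelin receptor, reached at most 10 counts in a library, and Edn3 had 0 counts in all 6. Ece2, Kel and Cma1, which encode other peptidases able to process endothelins, reached at most 8 counts, and Mme, the peptidase neprilysin, at most 192. Mme had 2.73 ± 0.104 CPM in control and 1.08 ± 0.242 CPM in mitochondria libraries. It reached at most 0.224 FPKM and so was not tested. Of 7 further endothelin axis genes in the table only Furin, a proprotein convertase, was tested. Furin had 13.2 and 12.3 FPKM in control and mitochondria libraries and lay at −0.05 on the log2 scale (SE 0.04, adjusted p = 0.652 in edgeR). The ratio of Edn1 to Ednrb within a library was 39.0, 54.2 and 34.5 in control and 21.8, 16.4 and 11.5 in mitochondria libraries on FPKM. The ligand transcript therefore stayed above that of the receptor in every library, by less in the mitochondria libraries.

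**Figure D1:**
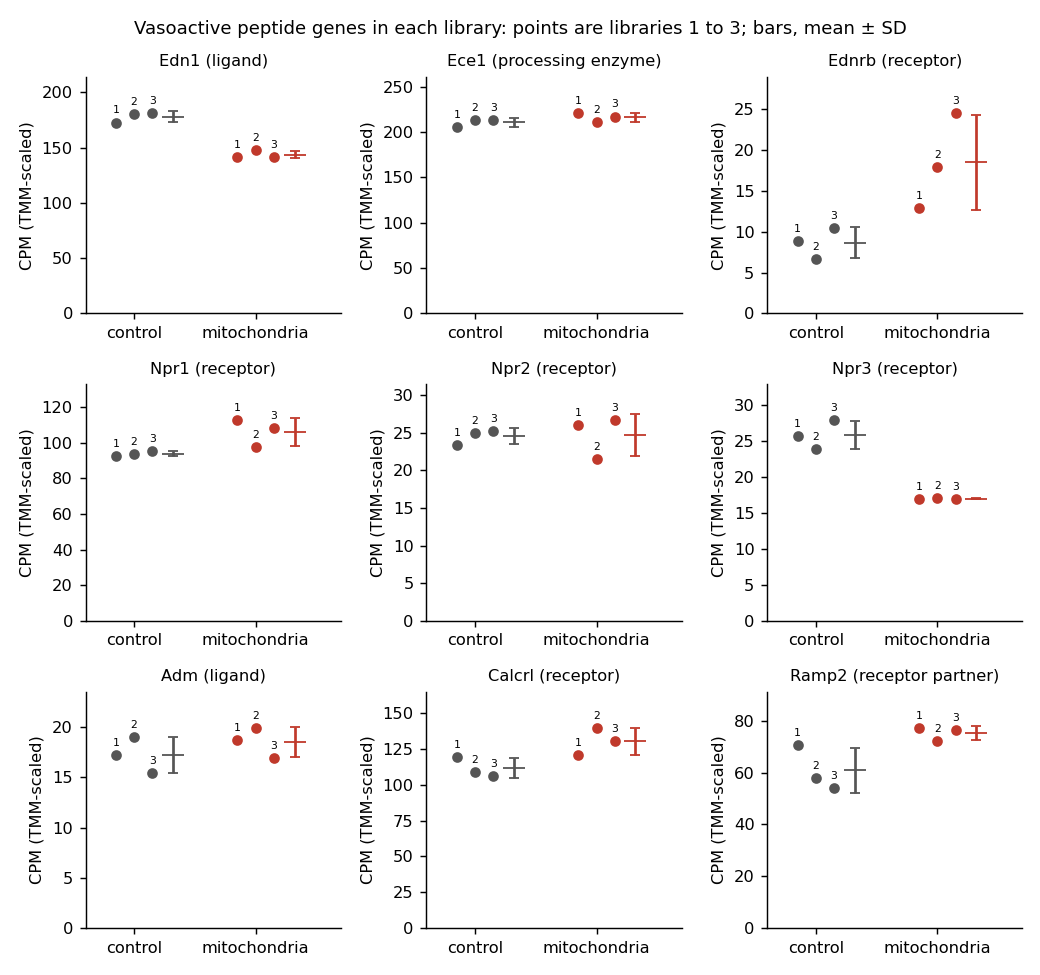
TMM-scaled CPM of the 9 genes in each library, one panel per gene, with the library number beside each point and the mean ± SD as a bar (n = 3 per group). Edn1 and Npr3 lie lower and Ednrb higher in all mitochondria libraries, with Ednrb spread from 13.0 to 24.5 CPM.

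Npr3, the clearance receptor (ENSMUSG00000022206, chr15:11839896-11907287, minus strand, 5 transcripts in GENCODE M21), had 25.7, 23.9 and 27.8 CPM in control 1 to 3. Mitochondria 1 to 3 had 16.9, 17.0 and 16.9 CPM. The groups did not overlap, and the mitochondria libraries were almost equal in CPM, with a coefficient of variation of 0.446% against 7.71% in control. On deposited FPKM the mitochondria libraries spread more, at 1.60, 1.53 and 1.55. The log2 fold change was −0.61 (SE 0.09, adjusted p = 0.00645 in edgeR), a level 0.657 times that of control. It passed in all 6 fits that left out a library, at −0.66 to −0.55. It did not pass with limma on log2(FPKM + 1) (adjusted p = 0.0527) or log2(FPKM + 0.1) (adjusted p = 0.0533), with no filter on low values (adjusted p = 0.057 in edgeR), or with the structural RNA share as a covariate. With 2.48 ± 0.162 FPKM in control and 1.56 ± 0.0331 FPKM in mitochondria libraries it was the least abundant of the 9 by the mean over all 6 libraries, although Ednrb was lower in control. Of the tested genes 14.4% had a lower mean level.

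Npr1, the receptor for atrial and B-type natriuretic peptides, was the most abundant of the 3 receptors at 17.7 ± 0.393 and 19.2 ± 1.81 FPKM. It had 92.6, 93.9 and 95.2 CPM in control and 113, 97.6 and 108 CPM in mitochondria libraries. The groups did not overlap on this scale, but mitochondria 2 stood near the controls, and on deposited FPKM it lay just below control 1, at 17.27 against 17.28. The log2 fold change was 0.18 (SE 0.05, adjusted p = 0.126 in edgeR), and without mitochondria 2 it was 0.23 (adjusted p = 0.0273 in edgeR). Npr1 also passed with DESeq2 (adjusted p = 0.0374). Npr2, the C-type natriuretic peptide receptor, had 23.4, 25.0 and 25.3 CPM in control and 26.0, 21.5 and 26.7 CPM in mitochondria libraries. Its groups overlapped and the difference in edgeR was 0.01 on the log2 scale (SE 0.10, adjusted p = 0.976), with a sign that changed between settings. An antisense gene over Npr2, Gm12473, had 50 to 126 counts, against 1243 to 1694 for Npr2.

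The make-up of the natriuretic peptide receptors differed between the groups within each library, where scaling has no part. Npr3 made up 10.1%, 9.22% and 10.5% of the summed FPKM of the 3 receptors in control 1 to 3. In mitochondria 1 to 3 it made up 5.83%, 6.75% and 5.96%, below every control. The share of Npr1 was 70.4% to 71.4% in control and 75.1% to 76.2% in mitochondria libraries, and that of Npr2 overlapped at 18.5% to 19.4% and 17.2% to 18.9%. Npr1 thus had 7.18 ± 0.513 times the FPKM of Npr3 in control and 12.3 ± 0.930 times in mitochondria libraries (SD, n = 3). These ratios come from the values that chose the genes and are given with no test.

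Of the listed genes that encode ligands of these receptors, none found in the table was tested. Nppa, the atrial peptide, reached at most 6 counts in a library, Nppb, the B-type peptide, at most 25, and Ostn, which encodes osteocrin, a ligand of NPR3, at most 4. For Nppc, the C-type peptide, no value was at hand. Of 14 further genes of this axis in the table, 4 were tested and none passed. The phosphodiesterase Pde2a, which cyclic GMP activates, was at 0.27 (SE 0.09, adjusted p = 0.153 in edgeR), with groups that did not overlap, and it passed with DESeq2 (adjusted p = 0.0407). The convertase Pcsk6 was at 0.11 (SE 0.10), the insulin-degrading enzyme Ide at −0.06 (SE 0.05) and the actin regulator Vasp at −0.03 (SE 0.05). The cyclic GMP kinase genes Prkg1 and Prkg2 reached at most 29 and 52 counts.

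**Figure D2:**
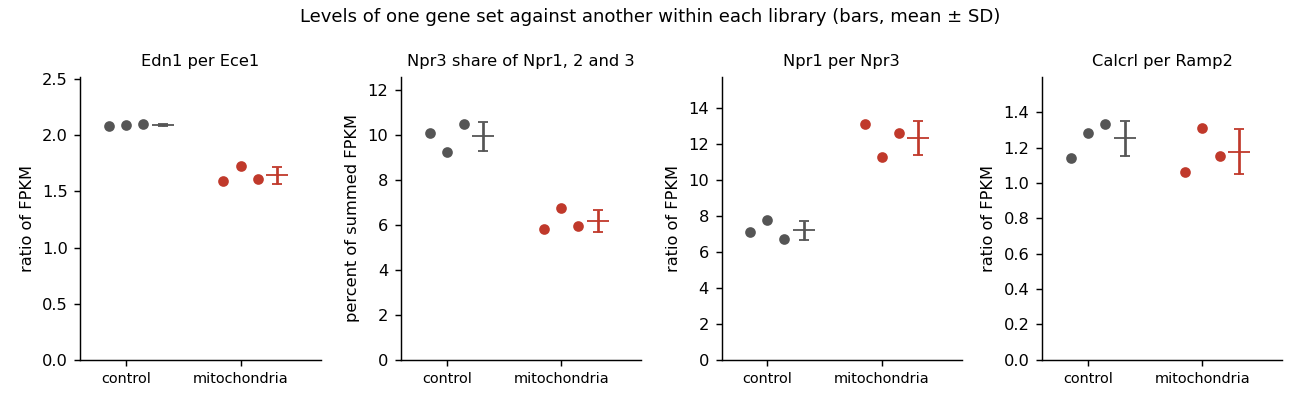
Ratios of FPKM between genes within each library (y axes: ratio, or percent of summed FPKM), with libraries 1 to 3 as points and mean ± SD as bars. Edn1 per Ece1 and the Npr3 share are lower and Npr1 per Npr3 is higher in all mitochondria libraries, while Calcrl per Ramp2 overlaps.

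Adm, the ligand adrenomedullin (chr7:110627661-110629820, plus strand), had 17.2, 19.0 and 15.4 CPM in control and 18.7, 20.0 and 17.0 CPM in mitochondria libraries. The groups overlapped, and the log2 fold change was 0.11 (SE 0.11, adjusted p = 0.685 in edgeR). Calcrl, its receptor (chr2:84330626-84425411, minus strand), had 119, 109 and 106 CPM in control and 121, 140 and 131 CPM in mitochondria libraries. The groups did not overlap, although control 1 and mitochondria 1 were close. Its log2 fold change was 0.23 (SE 0.06, adjusted p = 0.0793 in edgeR), 0.28 without mitochondria 1 (adjusted p = 0.0389 in edgeR) and 0.06 with the structural RNA share as a covariate (SE 0.09).

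Ramp2, the partner that carries CALCRL to the surface (chr11:101246028-101248250, plus strand), had 70.7, 57.7 and 54.1 CPM in control and 77.4, 72.2 and 76.5 CPM in mitochondria libraries. The groups did not overlap on this scale, and control 1 lay near mitochondria 2 and far from the other controls. On deposited FPKM they overlapped, with mitochondria 2 at 18.5 and control 1 at 19.1. The log2 fold change was 0.31 (SE 0.08, adjusted p = 0.0849 in edgeR). Without control 1 it was 0.43 (SE 0.06, adjusted p = 0.00661 in edgeR), the highest value among the fits that left out a library. DESeq2 passed Calcrl (adjusted p = 0.00591) and Ramp2 (adjusted p = 0.00609). Calcrl per Ramp2 on FPKM was 1.14, 1.28 and 1.33 in control and 1.06, 1.31 and 1.15 in mitochondria libraries, and these overlapped.

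In all, 6 of the 9 genes had groups that did not overlap in CPM, 4 higher and 2 lower, against 21.1% of all tested genes (10.1% higher and 11% lower). On deposited FPKM the groups of Npr1 and Ramp2 overlapped. The median log2 fold change was 0.11 over the 9 genes and 0.0011 over all tested genes.

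Among the other genes of the adrenomedullin and calcitonin peptide axis, 4 of 11 in the table were tested, none passed and all 4 lay above 0 (median 0.09). Ramp3, the other RAMP that gives CALCRL a preference for adrenomedullin, had 6.03 ± 0.232 FPKM in control and 7.37 ± 0.403 FPKM in mitochondria libraries. Its groups did not overlap and its log2 fold change was 0.35 (SE 0.11, adjusted p = 0.158 in edgeR). Pam, the enzyme that amidates the peptide, was at 0.09 (SE 0.04), the scavenger receptor Ackr3 at 0.06 (SE 0.07) and Crcp, which encodes a receptor component protein, at 0.09 (SE 0.07). With TPM all but Ramp3 lay below 0, where the median of all genes was itself −0.15. Ramp1, which pairs with CALCRL to bind calcitonin gene-related peptide, reached at most 4 counts.

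**Figure D3:**
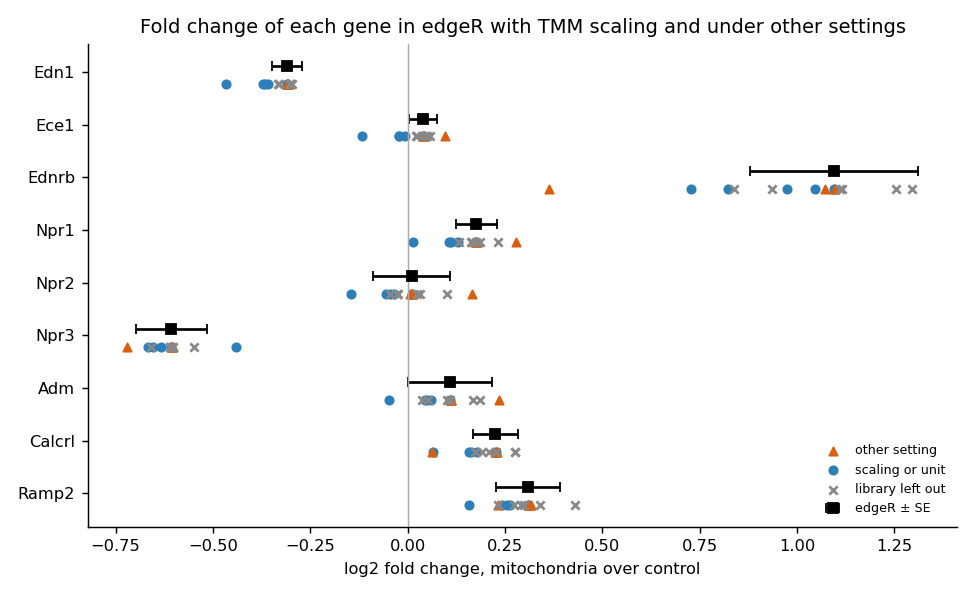
Log2 fold change of each of the 9 genes, mitochondria over control, with edgeR and TMM scaling (squares, bars are SE) and in the other settings (small symbols). Edn1 and Npr3 lie below 0 and Ednrb above 0 in all of them, while Ece1, Npr2 and Adm cross 0.

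Over the 7 lists of related genes, among them signalling downstream of these receptors and other vasoactive systems, 58 genes were tested and 2 passed, both lower (3.45%, against 2.09% of all tested genes). Rcan1, a calcium and calcineurin response gene, was the 1 of 19 in the Gq and calcium list. Rcan1 went from 21.9 ± 1.16 to 17.5 ± 1.56 FPKM and was at −0.27 on the log2 scale (SE 0.06, adjusted p = 0.047 in edgeR). Of the fits that left out a library it passed in the one without mitochondria 1. It did not pass with limma on FPKM, with no filter or with the structural RNA share as a covariate. The median of that list was 0.03. Ptgs2, the inducible cyclooxygenase that feeds prostanoid synthesis, was the 1 of 7 among other vasoactive systems, at −0.29 (SE 0.05, adjusted p = 0.00884 in edgeR). Ptgs2 went from 344 ± 22 to 270 ± 14.5 FPKM. It passed in all 6 fits that left out a library. It did not pass with limma on log2(FPKM + 1) (adjusted p = 0.0614) or log2(FPKM + 0.1) (adjusted p = 0.0619), with no filter (adjusted p = 0.132 in edgeR), or with the covariate, where it was at −0.25 (adjusted p = 0.773 in edgeR). The list's median was −0.02.

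None of 17 cyclic AMP signalling genes passed (median −0.0096), and none of 6 genes of nitric oxide and soluble guanylyl cyclase did (median −0.07). Of the latter, 2 passed with DESeq2, library totals, TPM or the replicate block. In CPM the groups did not overlap for Nos3 and Gch1, both higher, and Cav1 and Ddah1, both lower. Those of Ddah2 and Nosip overlapped. Over all tested genes 21.1% did not overlap. In edgeR Ddah1 was at −0.23 (adjusted p = 0.0664), Cav1 at −0.11 (adjusted p = 0.0855) and Gch1 at 0.17 (adjusted p = 0.109). Nos3, the endothelial nitric oxide synthase, had 204 and 210 FPKM and lay at 0.10 on the log2 scale (SE 0.04, adjusted p = 0.192 in edgeR). The soluble guanylyl cyclase subunit gene Gucy1b1 had 0 counts in all 6 libraries. Apln, a vasoactive ligand gene, had 338 and 308 FPKM and lay at −0.07 on the log2 scale (SE 0.03, adjusted p = 0.299 in edgeR).

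**Figure D4:**
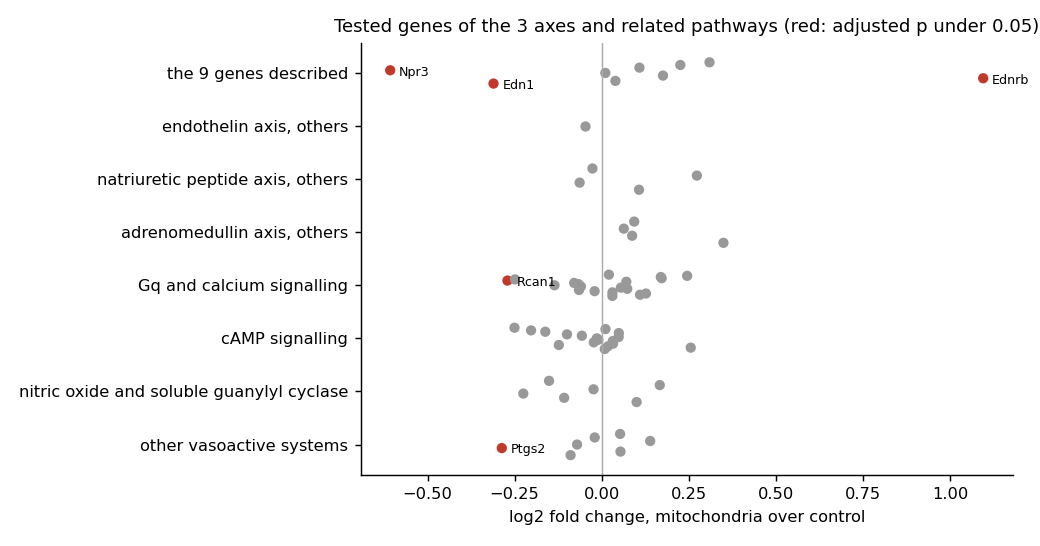
Log2 fold change, mitochondria over control, of the 9 genes and of the tested genes in 7 lists of related genes, 1 row per list. Red points passed an adjusted p under 0.05 in edgeR: Npr3, Edn1 and Ednrb in the top row, and Rcan1 and Ptgs2 among the others.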

How the data were processed

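Per the file headers, the deposited table holds raw counts and FPKM per gene and library, on GRCm38 per the submitters' processing notes. Without giving roles, these notes name edgeR and DESeq2, StringTie 2.1.6, HISAT2 2.2.1 and cutadapt 1.9. Per the labels' protocols the mRNA kit kept strand. Whether the authors counted by strand, and how they made the FPKM values, is not given in the sources used here, so genes with antisense partners are uncertain.

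Genes with at least 1 FPKM in at least 3 libraries were tested on the counts with edgeR 4.0.16 in R 4.3.3 (TMM scaling, glmQLFit and glmQLFTest, group as the only term, two-sided), with Benjamini-Hochberg adjustment over all of them. The standard error (SE) was derived as the size of the log2 fold change divided by √F. DESeq2 1.42.0 and limma 3.58.1 were alternatives. Each library was used as a separate sample, and totals ranged from 59651087 to 65576084 counts. The replicate numbers were not taken to pair the samples.

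The 9 genes, the lists of other genes and the settings were chosen with earlier results of these data known. Named were all 9 genes, every tested gene of the 3 axes' lists, every passing gene of the other lists, the 3 genes nearest in pattern to each of the 3 largest changes, and the most abundant gene of each marker list. Other genes were chosen after their values were seen. Among them were Nos3, Gch1, Cav1, Ddah1, Ddah2, Nosip, Gucy1b1, Apln, Flt1, Esam, Egfl7, Pecam1, Vwf, Ptprc, Bglap and genes with few counts. Coordinates are the deposited table's, which GENCODE M21 gives alike for 8 of the 9 genes. Promoter sequences are RefSeq's.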

Additional observations from a re-analysis of the deposited data

How the results depend on the processing

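Edn1 and Npr3 stayed below 0 and Ednrb, Npr1, Calcrl and Ramp2 above 0 in all settings run. Edn1 passed in 15 of 16 settings, Npr3 in 11 of 15 and Ednrb in 6 of 15, since a mean of at least 5 FPKM left the last 2 untested. The cause was not tested unless stated. Of all genes 235 passed, against 597 with DESeq2, 353 with library totals, 39 and 36 with limma on log2(FPKM + 1) and log2(FPKM + 0.1), 22 with no filter (more genes tested), 3 with the structural RNA share as a covariate, and 68 to 233 with a library left out. Genes that rose were 47.2% of those calls, but 17.3% with library totals, 17.9% and 16.7% on FPKM with pseudocounts of 1 and 0.1, 6.10% with TPM and 27.3% with no filter. The median of all genes was −0.15 with TPM. Of the 9 genes 3 passed, against 6 with DESeq2, 1 with limma on FPKM at either pseudocount, 1 with no filter, 1 with a mean of at least 5 FPKM (fewer genes tested) and 0 with the covariate, where 3 of all genes passed; 2 to 4 passed with a library left out. Of the 58 related genes 2 passed, against 6 with DESeq2, 4 with library totals, 4 with TPM, 4 with the replicate block, 0 with limma on FPKM at either pseudocount, 0 with no filter, 0 with the covariate, and 1 to 2 with a library left out.

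Correlations of same-numbered deviations between the groups were low (0.0667, 0.0675 and 0.0352), against −0.14 to 0.08 for other pairs. Whether libraries with the same number share a batch cannot be told from these values. With the replicate block 394 genes passed and 4 of the 9, Ramp2 among them (0.32, adjusted p = 0.023 in edgeR).

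Reversed signs were all in genes that did not pass. Ece1 was at −0.0078 with library totals, −0.0212 and −0.0217 on FPKM with pseudocounts of 1 and 0.1 and −0.12 with TPM. Npr2 was at −0.0358 with library totals, −0.0463 and −0.0562 on FPKM with pseudocounts of 1 and 0.1, −0.15 with TPM, and −0.0467 to 0.10 with a library left out. With TPM, Adm was at −0.0475, Pcsk6 at −0.0486, Pam at −0.0690, Crcp at −0.0663 and Ackr3 at −0.10. Ackr3 was also at −0.0020 and −0.0022 on FPKM, −0.14 with the covariate and −0.0081 to 0.14 with a library left out. With the covariate Vasp was at 0.0896 and Pam at −0.00013, and with a library left out Vasp was at −0.0635 to 0.0049. With counts per exon length the mean Npr3 share was 9.93% in control and 6.18% in mitochondria libraries, as with FPKM. The mean Calcrl to Ramp2 ratio was 1.251 and 1.175, against 1.252 and 1.176 with FPKM. FPKM is itself scaled to length, so this was no separate check. Among Edn1, Npr3 and Ednrb, Ednrb had the lowest minimum and maximum, at 450 to 1462 counts, against 982 to 1816 for Npr3.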
